A study of Mus musculus with 8 samples.

Results

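Glutathione transferases join the tripeptide glutathione to reactive, mostly oily compounds, or use it to reduce peroxides, which makes these compounds soluble and ready for export. The soluble enzymes fall into classes named by Greek letters, and a separate family sits in membranes. In fibroblasts, as in most cells, several of them are known targets of NRF2, the factor that turns on genes against oxidants and electrophiles. The 10 genes described here are Gsta4 (alpha class), Gstm1, Gstm2 and Gstm5 (mu), Gsto1 (omega), Gstp1 (pi), Gstt1 and Gstt3 (theta), Gstk1 (kappa) and Mgst1 (microsomal). All probe sets that the platform's annotation assigns to 1 of these genes alone were taken, which gave 15 probe sets of 45037 and all 10 genes of 18193.

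The RNA came from mouse embryonic fibroblasts, connective tissue cells grown out of C57BL/6 embryos at E13.5, either wild type (WT, 4 samples) or with both copies of Cebpg disrupted (Cebpg-/-, 4 samples). Cebpg encodes C/EBPγ, a leucine zipper factor that pairs with other factors of its kind. Both genotypes were grown in medium with 10% serum and antibiotics, with no other treatment named, plated at passage 3 at equal density and harvested 48 hours later. The 8 samples are called biological replicates, and it is not given in the sources used here whether each is a separate embryo, so the p-values rest on the spread among these samples, which may be technical. Values are log2 RMA values, 1 array per sample.

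All 11 measured fibroblast markers lay above the median probe set on every array. Of these, 5 (Col1a1, Col1a2, Col3a1, Pdgfrb and Postn) were called lower in Cebpg-/- and none higher, and the marker mean was 9.85 in WT and 9.56 in Cebpg-/-; its part in the results was not tested. Markers of other cell types above the median on every array numbered 15 of 18 for leukocytes, 4 of 6 for epithelium, 3 of 6 for hepatocytes, 3 of 5 for neural and glial cells, 2 of 6 for skeletal muscle, 1 of 6 for endothelium and 1 of 5 for erythroid cells. The mean of the 18 leukocyte markers ran from 3.66 to 5.63 on the WT arrays and from 4.99 to 7.73 on the Cebpg-/- arrays, lowest on WT replicate 1 and highest on Cebpg-/- replicate 1. In bulk RNA fewer cells of a type and less RNA per cell cannot be told apart. Of 3 probe sets for Cebpg itself, 1451639_at fell from 6.32 ± 0.07 to 5.53 ± 0.12 (SD, n = 4; limma, adjusted p = 0.000593 over all probe sets). The brightest, 1425262_at, read 6.78 ± 0.16 in WT and 6.60 ± 0.11 in Cebpg-/- and did not pass (adjusted p = 0.275), and the dim 1425261_at was 0.26 higher in Cebpg-/- without overlap (adjusted p = 0.0942). It is not given in the sources used here which of the 3 lie in the deleted part. Over all genes, 8.62% were called higher and 3.99% lower in Cebpg-/-, by limma with Benjamini-Hochberg adjustment over 18193 genes and a threshold of 0.05. The higher share of those calls was 68.4%, against 56.7% when arrays were quantile-normalized and 78.9% when their medians were subtracted.

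The promoters of 3 genes that rose are shown with that of Gstm5, which did not pass, because they range from no match to 2 matches to the sites that NRF2, AP-1 and C/EBP factors are known to use. Sequences are from RefSeq (GRCm38.p6), which matched 9 of the 10 genes, without Gsta4, and gave 12 windows. Each run covers the 250 bases before the gene's start, 5′ to 3′ on the gene's strand, and capitals mark the matches.
Gstp1, chr19:4037913-4038162, - strand: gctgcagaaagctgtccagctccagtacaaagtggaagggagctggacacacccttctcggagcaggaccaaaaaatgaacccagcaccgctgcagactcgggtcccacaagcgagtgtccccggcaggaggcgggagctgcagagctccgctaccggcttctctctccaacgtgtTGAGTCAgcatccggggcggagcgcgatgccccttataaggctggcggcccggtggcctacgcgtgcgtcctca
Mgst1, chr6:138140277-138140526, + strand: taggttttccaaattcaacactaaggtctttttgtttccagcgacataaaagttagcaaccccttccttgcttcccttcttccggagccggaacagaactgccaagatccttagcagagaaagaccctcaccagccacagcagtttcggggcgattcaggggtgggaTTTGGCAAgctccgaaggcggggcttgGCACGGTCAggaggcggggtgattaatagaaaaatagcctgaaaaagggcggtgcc
Gstk1, chr6:42245685-42245934, + strand: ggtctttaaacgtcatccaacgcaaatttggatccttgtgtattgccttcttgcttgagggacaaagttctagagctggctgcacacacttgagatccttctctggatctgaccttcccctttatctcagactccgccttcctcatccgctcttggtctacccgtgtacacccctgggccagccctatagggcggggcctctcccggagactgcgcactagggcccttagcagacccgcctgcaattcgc
Gstm5, chr3:107895604-107895853, + strand: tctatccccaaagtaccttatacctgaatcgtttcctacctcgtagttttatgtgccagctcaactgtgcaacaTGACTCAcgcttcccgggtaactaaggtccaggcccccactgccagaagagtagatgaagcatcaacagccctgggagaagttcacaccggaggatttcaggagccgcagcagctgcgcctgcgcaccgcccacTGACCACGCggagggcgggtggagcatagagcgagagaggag
The search covered the window from 250 bases before to 50 bases after each start, on both strands, for the antioxidant response core (ARE, TGACNNNGC), the C/EBP-ATF element (TGATGNAA), the AP-1 site (TGANTCA) and the C/EBP site (TTGCNNAA). Gstp1 holds an AP-1 match, TGAGTCA, that begins 74 bases before the start. In the window shown, Mgst1 holds an ARE match 56 bases and a C/EBP match 83 bases before the start, both on the opposite strand and counted from the leftmost base. The other window of Mgst1, chr6:138141337-138141636, holds no match. Gstm5 holds both an ARE match, 42 bases before the start, and an AP-1 match, 176 bases before it, and the window of Gstk1 holds no match to any of the 4. Among the 9 genes, 2 have an ARE match, 2 an AP-1 match, 3 a C/EBP match and 0 the C/EBP-ATF element. Over all 27025 genes of the table these shares are 14.0%, 8.97%, 12.2% and 4.51%. The remaining 2 C/EBP matches lie in Gstm2 and Gstt1. A match describes the letters only. Of the windows shown, that of Mgst1 holds 2 matches, of Gstp1 1 and of Gstk1 0, and these 3 genes rose. Gstm5 did not pass with 2 matches, and Gsta4 had no window. Whether matches and changes go together was not tested.

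In Cebpg-/- fibroblasts 4 of the 10 transferase genes rose and none fell, where 8.62% of all genes were called higher and 3.99% lower. Gsta4 rose most, 2.73-fold, followed by Mgst1 (1.82-fold), Gstk1 (1.43-fold) and Gstp1 (1.18-fold). After subtraction of array medians 7 genes rose, with Gstm1, Gsto1 and Gstt3 added, where 12.0% of all genes were called higher. With the replicate number as a block 2 rose (5.38% of all genes), and 1 rose with the leukocyte marker mean as a covariate (1.39%) or without both arrays at the extremes of that mean (1.91%). With the deposited values the other 6 did not pass the test, although with an unadjusted p under 0.05, limma gave 7 higher genes and 1 lower gene. At that level 17.5% of all genes were higher and 10.9% lower. The groups did not overlap in 6 of the 10 genes, where 19.5% of all genes were so separated. The median change of the 10 was 0.27 on the log2 scale, and -0.000922 over all genes. Over probe sets, 3 of 15 passed, all higher, where 4.82% of all probe sets were called higher and 2.78% lower (limma, adjusted over 45037 probe sets). These genes were chosen with earlier results of these data known, so the counts describe them and support nothing further.

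**Figure D1:**
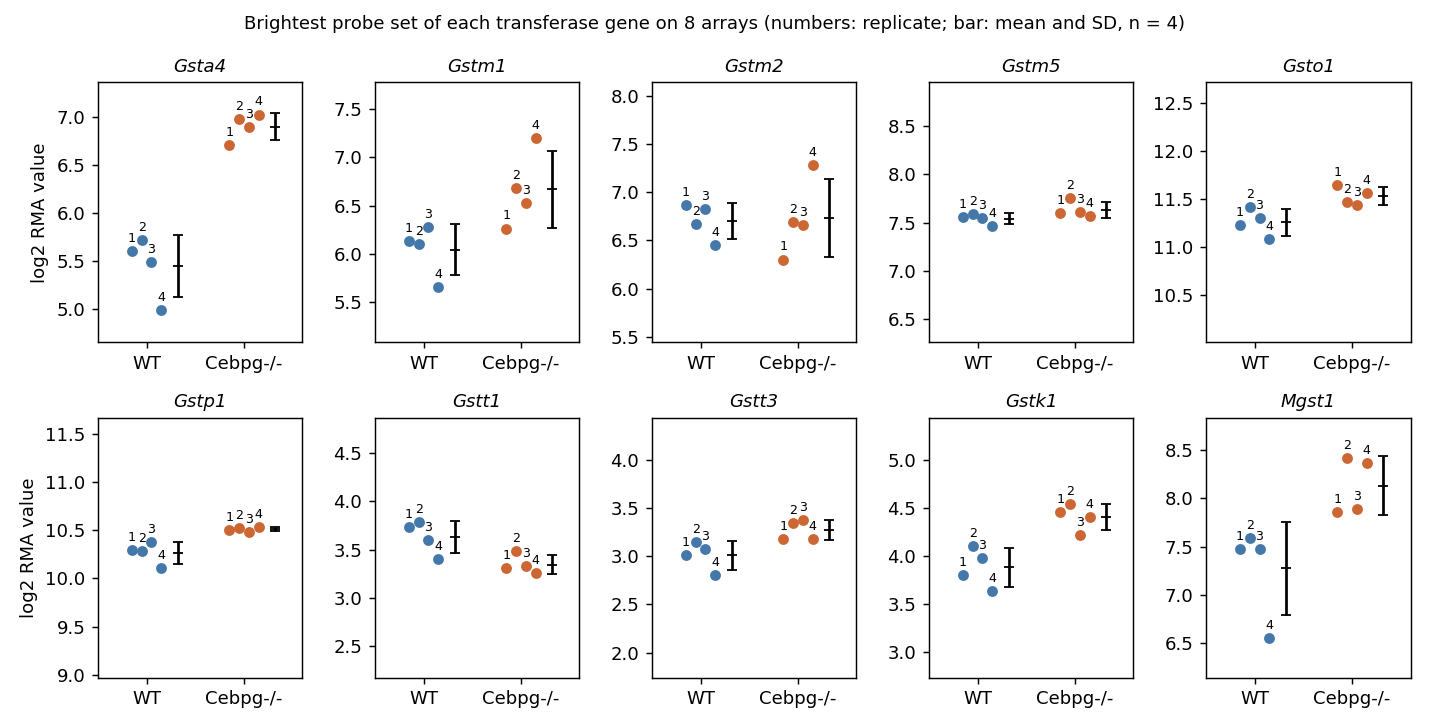
Log2 RMA value (vertical axis, with the same span in each panel) of the brightest probe set of each of the 10 genes in WT and Cebpg-/- fibroblasts; points are arrays numbered by replicate, and the bar beside them is the mean with its SD (n = 4). Gsta4, Mgst1, Gstk1 and Gstp1, and also Gsto1 and Gstt3, lie higher on every Cebpg-/- array than on any WT array. WT replicate 4 is the lowest WT point in all 10 panels.

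Gsta4, the alpha-class enzyme best known for detoxifying hydroxynonenal, an aldehyde released from oxidised lipids, has 1 probe set (1416368_at). It read 5.61, 5.72, 5.49 and 4.99 on WT replicates 1 to 4 and 6.70, 6.98, 6.89 and 7.02 on Cebpg-/- replicates 1 to 4. All 4 Cebpg-/- values lay well above the WT range, within which replicate 4 was lowest. The mean went from 5.45 ± 0.32 to 6.90 ± 0.14 (SD, n = 4), a change of 1.45 with a 95% interval of 1.13 to 1.77 (limma, adjusted p = 0.000443 over genes). The call held in all 17 alternative analyses that give a value for single genes, with changes of 1.30 to 1.61. Without WT replicate 4, the lowest array, the change was 1.30 (adjusted p = 0.000158).

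Mgst1, the membrane-bound enzyme of the endoplasmic reticulum and outer mitochondrial membrane, which also reduces lipid peroxides, rose on its bright probe set. That probe set (1415897_a_at) read 7.47, 7.59, 7.48 and 6.55 on WT replicates 1 to 4 and 7.86, 8.42, 7.89 and 8.37 on Cebpg-/- replicates 1 to 4. The groups did not overlap, but 3 WT arrays lay close together and WT replicate 4 lay far below them. The change was 0.86 (95% interval 0.36 to 1.36; limma, adjusted p = 0.0341 over genes), and 0.62 without WT replicate 4 (adjusted p = 0.0240). The call was lost without WT replicate 1 (0.0640) or 3 (0.0578) and without Cebpg-/- replicate 1 (0.0512), 2 (0.0685), 3 (0.0538) or 4 (0.0899). A second probe set of Mgst1, 1415898_at, read 1.62 ± 0.18 and 1.63 ± 0.10, below the median probe set of each array. With the mean of both probe sets as the gene's value the change was 0.44 (limma, adjusted p = 0.0804).

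Gstk1, the kappa-class enzyme of mitochondria and peroxisomes, whose fold differs from that of the other soluble transferases, rose on its only probe set (1452823_at). Values were 3.81, 4.11, 3.99 and 3.64 on WT replicates 1 to 4 and 4.45, 4.54, 4.22 and 4.40 on Cebpg-/- replicates 1 to 4. The highest WT array, replicate 2, lay just below the lowest Cebpg-/- array, replicate 3. The change was 0.52 (95% interval 0.28 to 0.76; limma, adjusted p = 0.0128), and it stayed between 0.44 and 0.59 with the call kept when any 1 array was left out. The call was lost with the leukocyte covariate (0.55, adjusted p = 0.0920) and when both arrays at the leukocyte extremes were left out (0.48, adjusted p = 0.114).

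Gstp1, the pi-class enzyme, which besides its catalytic role is known to bind the stress kinase JNK, changed little in size. Probe set 1449575_a_at read 10.30, 10.28, 10.38 and 10.11 on WT replicates 1 to 4 and 10.50, 10.53, 10.48 and 10.53 on Cebpg-/- replicates 1 to 4. The Cebpg-/- arrays spread by an SD of only 0.02 and all lay above the WT arrays. The change of 0.24 (95% interval 0.10 to 0.39) passed over genes (limma, adjusted p = 0.0379) and not over all probe sets (0.0517). The call depended on single arrays: it held without WT replicate 3 and was lost without any other array, with adjusted p from 0.0556 without WT replicate 4 to 0.0874 without Cebpg-/- replicate 4. The neighbouring Gstp2 is nearly the same gene in sequence, and whether this probe set tells them apart was not tested.

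**Figure D2:**
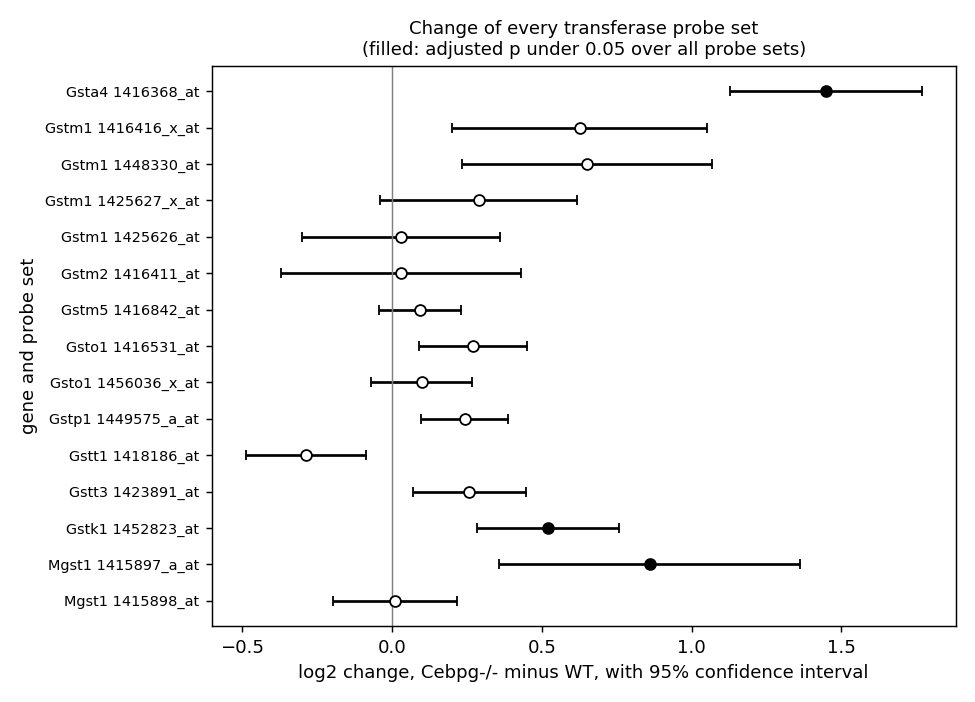
Log2 change (Cebpg-/- minus WT, horizontal axis) of all 15 probe sets of the 10 genes, with the 95% confidence interval from limma; filled points have an adjusted p under 0.05 over all probe sets. Gsta4, Gstk1 and Mgst1 1415897_a_at are filled, and the 4 probe sets of Gstm1 run from 0.03 to 0.65.

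The mu-class genes, broad enzymes for aromatic and epoxide electrophiles, gave no call. Gstm1 has 4 probe sets. The brightest, 1416416_x_at, read 6.13, 6.10, 6.27 and 5.66 on WT replicates 1 to 4 and 6.26, 6.68, 6.53 and 7.20 on Cebpg-/- replicates 1 to 4. WT replicate 3 lay just above Cebpg-/- replicate 1, so the groups overlapped, and Cebpg-/- replicate 4 was the highest array. Its change of 0.63 did not pass (95% interval 0.20 to 1.05; limma, adjusted p = 0.0583 over genes), but passed without Cebpg-/- replicate 1 (0.76, adjusted p = 0.0406) and after subtraction of array medians (0.66, adjusted p = 0.0402). The second brightest, 1448330_at, differed by 0.65 with no overlap (adjusted p = 0.0641 over all probe sets), 1425627_x_at by 0.29 (0.270) and the dim 1425626_at by 0.03 (0.929). The _x_at suffix marks probe sets with probes that match several transcripts, and mu-class genes are close copies of each other, so how far Gstm1 values include its relatives is uncertain.

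Gstm2 (1416411_at) read 6.87, 6.67, 6.83 and 6.45 on WT replicates 1 to 4 and 6.30, 6.69, 6.66 and 7.28 on Cebpg-/- replicates 1 to 4. The Cebpg-/- arrays held both the lowest and the highest of the 8 values. The difference was 0.03 (95% interval -0.37 to 0.43; limma, adjusted p = 0.933), and its sign turned after quantile normalization (-0.01), without WT replicate 4 (-0.05) and without Cebpg-/- replicate 4 (-0.15). Gstm5 (1416842_at) was flat, between 7.46 and 7.59 on the WT arrays and between 7.56 and 7.75 on the Cebpg-/- arrays, with a difference of 0.09 (95% interval -0.04 to 0.23; adjusted p = 0.351).

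Gstm1 and Gstm2 shared their lowest WT array (replicate 4) and their lowest and highest Cebpg-/- arrays (replicates 1 and 4). The value of Gstm1 minus that of Gstm2 was -0.74, -0.57, -0.55 and -0.79 on WT replicates 1 to 4 and -0.04, -0.01, -0.14 and -0.08 on Cebpg-/- replicates 1 to 4. The change of Gstm1 on its brightest probe set, 1416416_x_at, therefore exceeded that of Gstm2 by 0.60. An exact two-sided permutation test over the 8 samples, added after the values were seen, gave p = 0.0286. That is the smallest p that 4 against 4 can give, and the adjusted p was 0.0571 over the 4 pairs of genes compared within a class. Gstm1 against Gstm5 differed by 0.53 (exact p = 0.0571, adjusted p = 0.0762) and Gstm2 against Gstm5 by -0.06 (exact p = 0.857). The other probe sets of Gstm1, which changed by 0.65, 0.29 and 0.03, were not compared in this way.

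In the RefSeq order on chromosome 3 the mu-class genes follow each other as Gstm5, Gstm7, Gstm6, Gstm3, Gstm2, Gstm1 and Gstm4. Their differences in that order were 0.09, -0.16, -0.01, -0.04, 0.03, 0.63 and 0.17 on the log2 scale, and none of the 7 passed (limma, adjusted p from 0.0583 to 0.979). At an unadjusted p under 0.05, Gstm1 passed among the 7.

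The theta-class genes, which act on small halogenated compounds, lay near each other in size of change and on opposite sides of 0. Gstt1 (1418186_at) read 3.73, 3.78, 3.60 and 3.40 on WT replicates 1 to 4 and 3.31, 3.49, 3.33 and 3.26 on Cebpg-/- replicates 1 to 4, so that only WT replicate 4 reached into the Cebpg-/- range. Its difference of -0.29 did not pass (95% interval -0.49 to -0.09; limma, adjusted p = 0.0647), but passed without WT replicate 4 (-0.36, adjusted p = 0.0172), without Cebpg-/- replicate 2 (-0.33, adjusted p = 0.0456) and with array weights (-0.33, adjusted p = 0.0224). Gstt3 (1423891_at) ran from 2.81 to 3.15 on the WT arrays and from 3.18 to 3.37 on the Cebpg-/- arrays, with no overlap. Its difference of 0.26 did not pass (95% interval 0.07 to 0.45; adjusted p = 0.0738), but did after subtraction of array medians (0.29, adjusted p = 0.0344). Gstt3 minus Gstt1 changed by 0.55 between genotypes (exact p = 0.0286, adjusted p = 0.0571 over the 4 pairs), a comparison also added after the values were seen.

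Gsto1, the omega-class enzyme, which reduces dehydroascorbate and mixed disulfides, has 2 bright probe sets. 1416531_at read 11.23, 11.42, 11.30 and 11.08 on WT replicates 1 to 4 and 11.64, 11.47, 11.44 and 11.56 on Cebpg-/- replicates 1 to 4. The arrays of each genotype stayed apart by a narrow margin. The difference of 0.27 did not pass (95% interval 0.09 to 0.45; limma, adjusted p = 0.0559), and it passed in 5 of 17 alternatives, among them the fit without WT replicate 2 (0.32, adjusted p = 0.0329). The other probe set, 1456036_x_at, differed by 0.10 with overlap (adjusted p = 0.466 over all probe sets).

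WT replicate 4 was the lowest WT array in all 10 transferase genes, including Gstt1, which was lower in Cebpg-/-. Over all genes 37.3% had their lowest WT value on that array, and 31.4% of those brighter than the median gene. It also had the lowest fibroblast marker mean of the WT arrays, 9.62 against 9.87 to 10.01. The changes of the 4 called genes without it were 1.30 (Gsta4), 0.62 (Mgst1), 0.44 (Gstk1) and 0.19 (Gstp1), of which that of Gstp1 did not pass (limma, adjusted p = 0.0556). Among the Cebpg-/- arrays, replicate 1 was lowest in 5 genes and replicates 2 and 4 highest in 4 each.

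**Figure D3:**
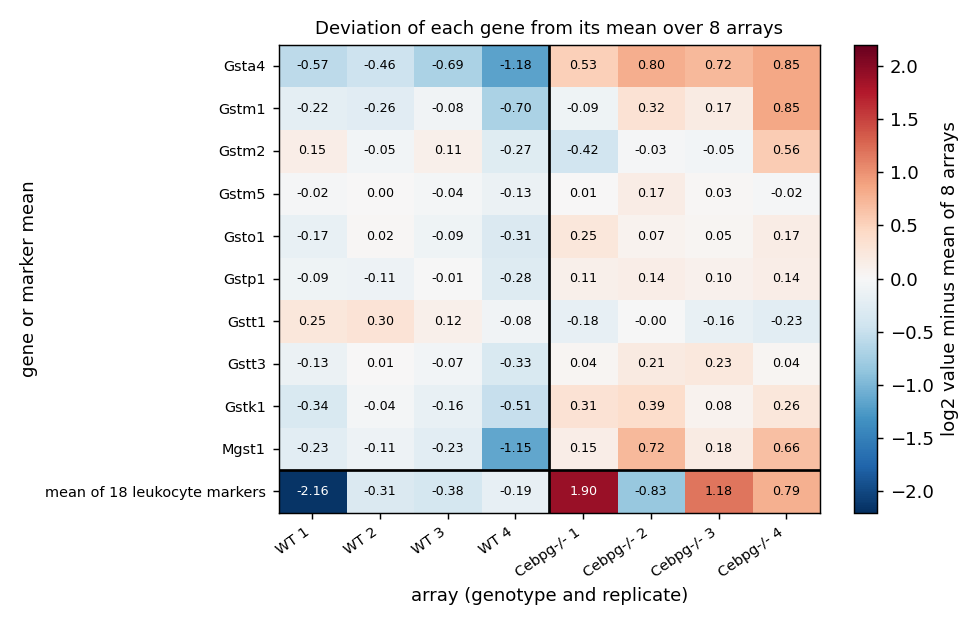
Each cell is the log2 value of a gene's brightest probe set on an array minus its mean over the 8 arrays (colour and number), with genes in rows and arrays in columns; the last row gives the same for the mean of 18 leukocyte markers. The Gsta4 and Mgst1 cells are lowest on WT replicate 4, while the leukocyte cells are lowest on WT replicate 1 and highest on Cebpg-/- replicate 1.

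The Cebpg-/- array with the most leukocyte signal, replicate 1 (7.73), had the lowest Cebpg-/- values of Gsta4, Gstm1 and Mgst1, and the one with the least, replicate 2 (4.99), had the highest Mgst1 value. Replicate 1 also had the highest Gsto1 value (11.64) and the second highest Gstk1 value (4.45) of the Cebpg-/- arrays. All 18 markers had a higher mean in Cebpg-/-, by 0.93 to 1.99, and 14 did so at an unadjusted p under 0.05, while 1, Cd14, was called higher (limma). With their mean as a covariate the changes were 1.61 for Gsta4, 1.17 for Mgst1, 0.55 for Gstk1 and 0.28 for Gstp1. Without it they were 1.45, 0.86, 0.52 and 0.24. The covariate differed between genotypes, so its part and that of genotype cannot be told apart. Among these 4 genes Gsta4 alone passed with it (limma, adjusted p = 0.00326, against 0.0566, 0.0920 and 0.161). The change of Gsto1, which did not pass with or without the covariate, was 0.22 with it and 0.27 without. The same single gene passed when WT replicate 1 and Cebpg-/- replicate 1 were both left out, at 1.56 (adjusted p = 0.00682). In those fits 2.04% and 2.91% of all genes were called, against 12.6% with all arrays and no covariate.

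By the fixed measure of likeness, the mean absolute difference over the 8 arrays after each gene's WT mean was subtracted, the 3 genes most like Gsta4 among 9096 were Plpp3 (0.08), Ptges (0.13) and Nqo1 (0.15). Plpp3, a lipid phosphatase, rose by 1.36, Ptges, a prostaglandin E synthase and itself of the membrane family of Mgst1, by 1.50, and Nqo1, a quinone reductase, by 1.23. All 3 were lowest in WT on replicate 4, as Gsta4 was. The measure picks genes that follow Gsta4 array by array, so neither this nor the size of their rises is a separate finding. No transferase fell, so no gene was sought for a fall.

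The counts of called genes in the lists that follow stand beside 8.62% called higher and 3.99% called lower over all genes. Those at an unadjusted p under 0.05 stand beside 17.5% higher and 10.9% lower over all genes. Other transferases were given by a list of 19 genes, of which 17 were measured. Their median change was 0.20; 3 rose, none fell and 14 missed the threshold (limma; at an unadjusted p under 0.05, 8 higher and 0 lower). The risers were Ptges at 1.50, Gsto2 at 0.92 and Mgst3 at 0.74 (limma, adjusted p = 0.000550, 0.0172 and 0.00860). Ptges rose on all of its 3 probe sets without overlap. Gsto2, next to Gsto1 on chromosome 19, read 2.26, 2.59, 2.31 and 1.99 on WT replicates 1 to 4 and 3.61, 2.76, 2.89 and 3.57 on Cebpg-/- replicates 1 to 4, so its WT values lay under the median probe set. Its call was lost without WT replicate 1, with the leukocyte covariate (0.68, adjusted p = 0.211) and with the replicate number as a block. Gsta2, Gsta3, Gstm6, Gstp3, Gstt2, Gstt4 and Ltc4s lay below 3 on the log2 scale in both genotypes and did not pass. Hpgds, the sigma-class prostaglandin D synthase of immune cells, read 2.08 ± 0.22 and 2.78 ± 0.49 (adjusted p = 0.0610), with its highest value on Cebpg-/- replicate 1, the array with the most leukocyte signal.

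Genes that supply glutathione to the transferases split. Of 9 measured 5 rose, 2 fell and 2 missed the threshold, and their median change was 0.44. At an unadjusted p under 0.05, limma gave 5 higher and 2 lower. Gclm (1.13), Gss (0.60), Gclc (0.47) and Gsr (0.44), which make glutathione or reduce it, rose, as did Ggct (0.89), which breaks down its gamma-glutamyl products. Cth (-3.24), which makes cysteine, and Slc7a11 (-0.67), which imports cystine, fell. Ggct passed with all arrays (adjusted p = 0.0199) and lost its call without WT replicate 1 or 3 or Cebpg-/- replicate 1 or 3. With the leukocyte covariate its change was 0.41 (adjusted p = 0.128). Slc7a11, which read 3.92 in WT and 3.25 in Cebpg-/-, lost its call with that covariate (-0.63, limma, adjusted p = 0.0826) and without both leukocyte extremes. Gsr lost its call in the same fits and Gclc with the covariate, while Gclm, Gss and Cth kept theirs in all 17 alternatives.

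Of 7 measured exporters of glutathione conjugates and related pumps 2 rose, none fell and 5 missed the threshold (limma; at an unadjusted p under 0.05, 3 higher and 1 lower), and their median change was 0.16. Abcc1, the main pump for glutathione conjugates in many cells, rose from 8.62 ± 0.06 to 9.18 ± 0.15 and Abcc4 from 4.75 ± 0.09 to 5.54 ± 0.18 (SD, n = 4; limma, adjusted p = 0.00276 and 0.000917). Both kept their call with any array left out and with the leukocyte covariate (0.42 and 0.60), and that of Abcc1 was lost with the mean of its probe sets. Of 9 measured enzymes that trim exported conjugates, none rose or fell, with a median change of -0.13 (limma; at an unadjusted p under 0.05, 0 higher and 2 lower).

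Of 18 measured genes of other aldehyde and quinone detoxification 7 rose, none fell and 11 missed the threshold (limma; at an unadjusted p under 0.05, 10 higher and 0 lower), and their median change was 0.25. The 4 with the lowest p were Ptgr1 (0.84), which reduces unsaturated aldehydes and ketones, Cbr3 (1.17), a carbonyl reductase, Nqo2 (0.54) and Nqo1 (1.23), with limma adjusted p from 0.000578 to 0.00220. These 4 passed in all 17 alternatives. Akr1b8 (0.58), Aldh2 (0.47) and Adh5 (0.24) also rose, and Adh5 kept its call in 1 of the 8 fits that leave out an array.

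In a list of 17 transcription factors drawn up for transferase genes, Cebpg among them, 2 rose, 2 fell and 13 missed the threshold. Their median change was -0.01, and at an unadjusted p under 0.05 limma gave 5 higher and 2 lower. Cebpg counted among the 13 by its brightest probe set (limma, adjusted p = 0.232 over genes), although its probe set 1451639_at fell. Nfe2l2, which encodes NRF2, rose by 0.24 (limma, adjusted p = 0.0210), with the call lost without WT replicate 1 or 3 or Cebpg-/- replicate 3 or 4, and Maff, a small MAF partner of NRF2, by 0.44. Bach1, a repressor at NRF2 sites, fell by 0.37 on the log2 scale and its relative Bach2 by 0.91. With the leukocyte covariate Nfe2l2 (0.23), Maff (0.37), Bach1 (-0.35) and Bach2 (-0.78) all lost their call (limma, adjusted p = 0.166, 0.0920, 0.0708 and 0.0855). Of 17 alternatives the call of Nfe2l2 held in 9, those of Maff and Bach1 in 15 each and that of Bach2 in 16. Keap1, the inhibitor of NRF2, read 6.34 ± 0.04 and 6.50 ± 0.05 (SD, n = 4; adjusted p = 0.0911). The leukocyte marker mean was 5.06 in WT and 6.58 in Cebpg-/- beside all of these lists, and with it as a covariate 9 of the 19 genes that rose in the 6 lists and 1 of the 4 that fell were called.

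**Figure D4:**
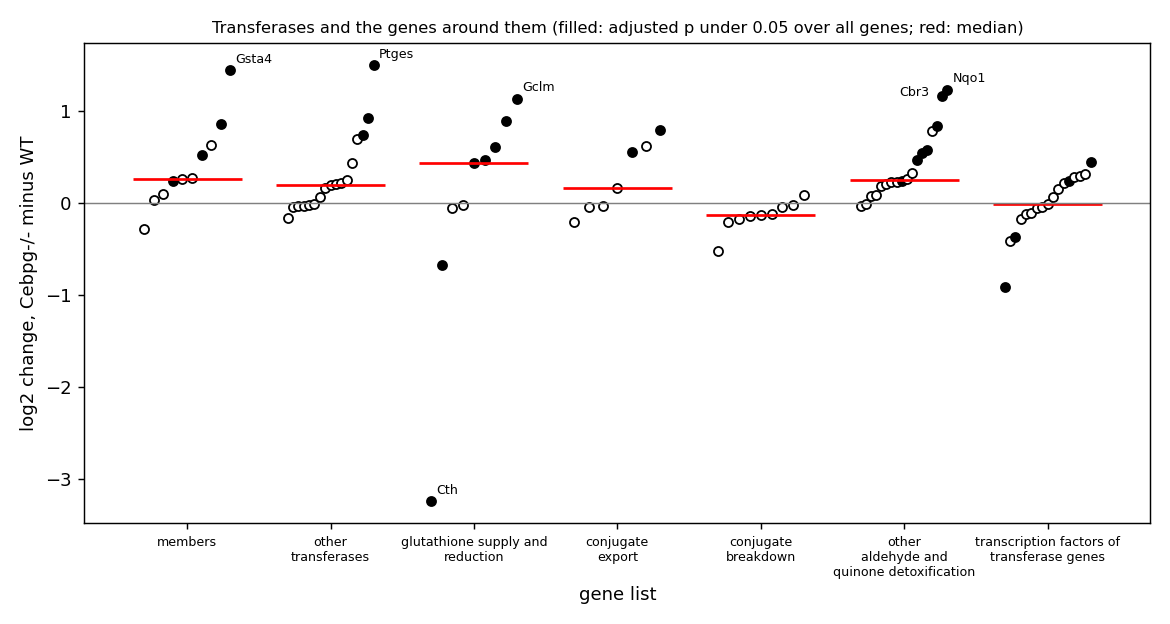
Log2 change (Cebpg-/- minus WT, vertical axis) of the 10 transferases (first column) and of the genes in the 6 lists around them; filled points have an adjusted p under 0.05 over all genes, and red lines are medians. The medians run from -0.13 for conjugate breakdown to 0.44 for glutathione supply, with that of the 10 transferases at 0.27, and Cth lies far below all others at -3.24.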

How the data were processed

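RNA of 8 fibroblast samples was measured on Affymetrix arrays from biotin-labelled cRNA made with an oligo(dT) primer from 1 µg of RNA, per the labels' protocols. The authors deposited log2 values. These come from RMA, per the submitters' processing notes, with a version and options not given in the sources used here. That method usually brings arrays to 1 distribution and compresses changes of dim probe sets. No scanner files were used here, so no background calls were made. The array medians ran from 2.70 to 2.76, and the number of arrays limits the precision.

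The table holds 45101 probe sets, and its 64 controls were dropped. The platform's annotation names 1 gene for 34945, and 34741 of these symbols were updated by Entrez number through RefSeq (GRCm38.p6). The brightest probe set stands for a gene. limma 3.58.1 in R 4.3.3 (lmFit, eBayes, genotype as the only term, threshold 0.05) was fitted to all 45037 probe sets and tested on simulated data; p-values were adjusted by Benjamini-Hochberg over 18193 genes or over all probe sets, as stated. Probe sets were matched to promoters by gene symbol. Exact permutation tests compared the changes of genes within a class, a comparison added after values were seen.

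The members, lists and alternatives were chosen with earlier results of these data known. Named are all members, up to 4 called genes per list by lowest p, the genes most like the largest rise and fall, and further list genes chosen after their values were seen. Results were recomputed after quantile normalization or subtraction of array medians, without dim probe sets (those not above 2.73 on 4 or more arrays), with a gene's probe sets averaged, with a trended robust variance or weighted arrays, with a replicate block or a leukocyte covariate, without single arrays, without the 2 leukocyte extremes (WT replicate 1 and Cebpg-/- replicate 1), and at a threshold of 0.1. Same-numbered samples of the 2 genotypes correlated between -0.36 and 0.15 in their deviations, so the numbers were not taken to pair them.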

Additional observations from a re-analysis of the deposited data

Results flagged for a closer look

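In 1 of the 30 groups of 4 values (15 probe sets in 2 genotypes) a single array stood apart from the others. Mgst1 (1415897_a_at) read 6.55 on WT replicate 4, where the other WT arrays lay between 7.47 and 7.59, and the gap made up 0.886 of the group's range, above the critical value of 0.829. Chance alone gives such a gap in about 5% of groups.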

How the results depend on the processing

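The counts of called transferases depended on the processing, while the direction of change was kept in every alternative by 9 of the 10 genes. The exception was Gstm2, at -0.0101 after quantile normalization and between -0.152 (without Cebpg-/- replicate 4) and 0.175 (without Cebpg-/- replicate 1) when 1 array was left out. Genes called higher numbered 4, against 7 after subtraction of array medians or at a threshold of 0.1, and 1 with the leukocyte covariate or without both leukocyte extremes. Of all genes, 8.62% were called higher in the main fit, 12.0% after subtraction of array medians and 12.9% at a threshold of 0.1. With the leukocyte covariate that share was 1.39%, and without both leukocyte extremes 1.91%. Probe sets called higher numbered 3, against 7 after subtraction of array medians, 8 at a threshold of 0.1, and 1 with the leukocyte covariate or without both leukocyte extremes. With array weights, and at a threshold of 0.1, 1 gene and 1 probe set (Gstt1) were called lower, against 0. Leaving out 1 array gave 2 to 4 genes and 1 to 4 probe sets called higher, 0 to 1 of each called lower, and 15 to 20 other genes of the pathway called higher and 4 to 5 lower, against 19 and 4. With the leukocyte covariate 9 of these other genes were called higher and 1 lower. With the replicate number as a block 2 transferase genes were called higher, Gstp1 (adjusted p = 0.0896) and Mgst1 (0.0617) being lost. The array medians ran from 2.72 to 2.76 in WT and from 2.70 to 2.72 in Cebpg-/-. Their subtraction therefore moved every log2 change upward by the same amount. Why the medians differed, and the cause of the other shifts, was not tested. The block, the covariate and the fits without arrays leave fewer degrees of freedom. The covariate also differed between genotypes, with a leukocyte marker mean of 5.06 in WT and 6.58 in Cebpg-/-, so its part and that of genotype cannot be told apart. The number of arrays limits the precision of every change, and the values carry no background calls for dim probe sets.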
